A study of Homo sapiens with 24 samples.

Results

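The genes described here are 10 factors that sense, rescue and clear stalled ribosomes, followed in PC9 cells, an established line of human non-small cell lung cancer. They were chosen by symbol, with earlier results of these data known. They are ZNF598, EDF1, ASCC2, ASCC3, PELO, HBS1L, GTPBP1, GTPBP2, NEMF and LTN1. The deposited count table holds 37411 genes, 1 of them for each symbol, and all 10 passed the filter on low counts that left 17409 genes for testing. The cells had grown in RPMI-1640 with serum before the change of medium, and the labels name no genetic manipulation of the line. The 8 groups were RPMI without or with asparagine, each holding 200 nM ISRIB or vehicle (0.004% DMSO), for 24 or 6 h before a common harvest. Every group has 3 libraries, described as biological triplicates in the design text. ISRIB stabilises the active form of eIF2B, the exchange factor of initiation factor eIF2, and thereby dampens the integrated stress response.

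When a ribosome halts on an mRNA, the ribosome behind it can run into it, and the collided pair is the signal that quality control reads. The E3 ubiquitin ligase ZNF598 marks the small subunit of collided ribosomes, and EDF1 binds the collision and brings in repressors of further initiation. The ubiquitin-binding ASCC2 and the helicase ASCC3, subunits of the ASC-1 complex, pull the leading ribosome apart. PELO, a relative of the release factor eRF1, works with the GTPase HBS1L on ribosomes with an empty A site, and GTPBP1 and GTPBP2 are a paralogous pair of translational GTPases of the same wider family. Loss of Gtpbp2 in the mouse, together with a defective arginine tRNA, causes ribosome stalling and neuron loss. Once the ribosome is split, NEMF binds the large subunit that still carries a nascent chain and recruits LTN1, the E3 ligase listerin, which ubiquitinates the chain. Shortage of an amino acid slows decoding of its codons and activates the kinase GCN2, which leads to the transcription factor ATF4.

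The libraries hold 16737384 to 27495861 counts, and the 10 genes had 418 to 3567 counts in any library. Asparagine synthetase ASNS, a target of ATF4 that serves here as the check of the medium and drug labels, averaged 166 ± 13.6 CPM (SD, n = 3) without asparagine in vehicle at 6 h and 29 ± 2.11 CPM with it. With ISRIB without asparagine at 6 h it averaged 26.7 ± 3.34 CPM (SD, n = 3). The epithelial markers EPCAM, CDH1, KRT7, KRT8, KRT18, KRT19 and EGFR were present at 291 to 4750 CPM in every library. Of 9 markers of blood cells, endothelium and fibroblasts, COL1A1 was highest at 3.45 to 14.1 CPM, and CD3E, DCN and COL3A1 were at 0 in 18, 18 and 15 of 24 libraries. Libraries differed in how counts depend on GC content: the slope ran from -0.37 to 0.22 log2 units per 10 percentage points of GC. The most negative slopes were -0.37 in replicate 3 of ISRIB with asparagine at 24 h, -0.35 in replicate 3 of ISRIB without asparagine at 6 h and -0.19 in replicate 1 of ISRIB with asparagine at 6 h. Across the 24 libraries the log2 level correlated with the slope at -0.931 for ASCC3, -0.884 for LTN1, -0.865 for NEMF and -0.692 for HBS1L. The correlation was 0.817 for ASCC2 and 0.774 for ZNF598. It was smaller for GTPBP1 (0.452), PELO (0.416), GTPBP2 (0.303) and EDF1 (0.255). These values of Pearson's r describe the libraries and carry no test. The slopes were themselves fitted over the tested genes, these 10 included. How far a response of the cells that follows GC content enters the slopes was not tested.

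On the length-scaled level, in CPM per kb of exon, EDF1 stood far above the other genes at 95.3 ± 11.7 (SD over 24 libraries), higher than 97.6% of the tested protein-coding genes. Most of the others lay close together. GTPBP1 averaged 12.7 CPM per kb, ZNF598 12.6, PELO 11, GTPBP2 10.1, ASCC3 9.38, HBS1L 8.89 and ASCC2 8.87. The 2 genes that act on the split large subunit were lowest, LTN1 at 5.29 and NEMF at 3.67 CPM per kb. The median over 12521 tested protein-coding genes was 4.93. NEMF shares 31.9% of its exon length with KLHDC2 on the opposite strand, where counts cannot be assigned with certainty. Its place below LTN1 and below the median is therefore uncertain. The 2 subunits of the ASC-1 complex, ASCC3 and ASCC2, differed by less than the SD of either. The genes differed in how much they moved: the ratio of the highest to the lowest of the 24 libraries was 4.62 for GTPBP2, 2.96 for ZNF598, 2.87 for NEMF and 2.39 for GTPBP1, and 1.35 for ASCC2.

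**Figure D1:**
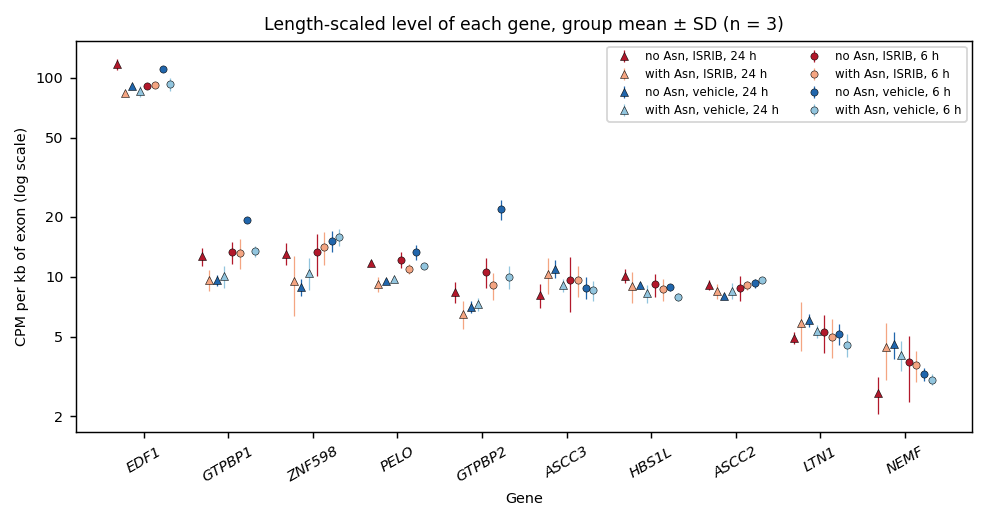
Length-scaled level of each gene in CPM per kb of exon (log axis), as the mean and SD of 3 libraries for each of 8 groups; circles are 6 h and triangles 24 h. EDF1 lies near 95.3, and the group without asparagine in vehicle at 6 h stands apart for GTPBP2 and GTPBP1.

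At 6 h of asparagine withdrawal in vehicle, the paralogs GTPBP2 and GTPBP1 rose and no other of the 10 genes passed edgeR's test, while DESeq2 also called EDF1. GTPBP2 measured 97, 113 and 92.4 CPM without asparagine, against 41.6, 53.1 and 44.3 CPM with asparagine. Its lowest starved library was thus well above its highest fed library, a log2 change of 1.12 ± 0.15 (SE) with adjusted p = 2.6e-05 by the quasi-likelihood test of edgeR over all genes. GTPBP1 measured 158, 162 and 152 CPM without asparagine, against 102, 115 and 113 CPM with asparagine. The groups again did not overlap, and the log2 change was 0.51 ± 0.13 (adjusted p = 0.019). These 2 calls, both upward, stand beside 4.57% of all genes called in this comparison, 3.31% upward. In bulk RNA a change in every cell and a larger change in some of the cells cannot be told apart.

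The genes of the other steps had smaller differences in the same comparison. EDF1 measured 129, 134 and 132 CPM without asparagine, against 110, 120 and 104 CPM with it, a log2 difference of 0.24 ± 0.07 with adjusted p = 0.053 by edgeR. It passed the threshold with DESeq2 (adjusted p = 0.0084), with a minimum of 5 CPM (0.037) and without the 3 libraries whose GC slope is most negative (0.22 ± 0.07, 0.037). With the GC trend removed the EDF1 difference was 0.38 ± 0.14 (adjusted p = 0.086). PELO measured 53.5, 63.6 and 56.1 CPM without asparagine, against 49.3, 50.6 and 47.9 CPM with it (0.23 ± 0.08, adjusted p = 0.15). Both genes had non-overlapping groups, as did HBS1L, so that 5 of the 10 genes did not overlap, in a comparison where 28% of all genes did not. The remaining log2 differences were -0.05 for ZNF598, -0.06 for ASCC2, 0.05 for ASCC3, 0.17 for HBS1L, 0.09 for NEMF and 0.18 for LTN1, with adjusted p from 0.56 to 0.93. The median log2 difference of the 10 genes was 0.17, against 0.01 over all genes tested. The GTPBP1 call was lost when replicate 1 (adjusted p = 0.055) or 2 (0.074) without asparagine, or replicate 1 (0.11) or 3 (0.05) with asparagine, was left out, whereas GTPBP2 stayed called in all 24 omissions. EDF1 was called in 3 omissions, at adjusted p of 0.033 without replicate 2 of vehicle with asparagine at 6 h, 0.046 without replicate 3 of ISRIB without asparagine at 6 h and 0.045 without replicate 3 of ISRIB with asparagine at 24 h.

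**Figure D2:**
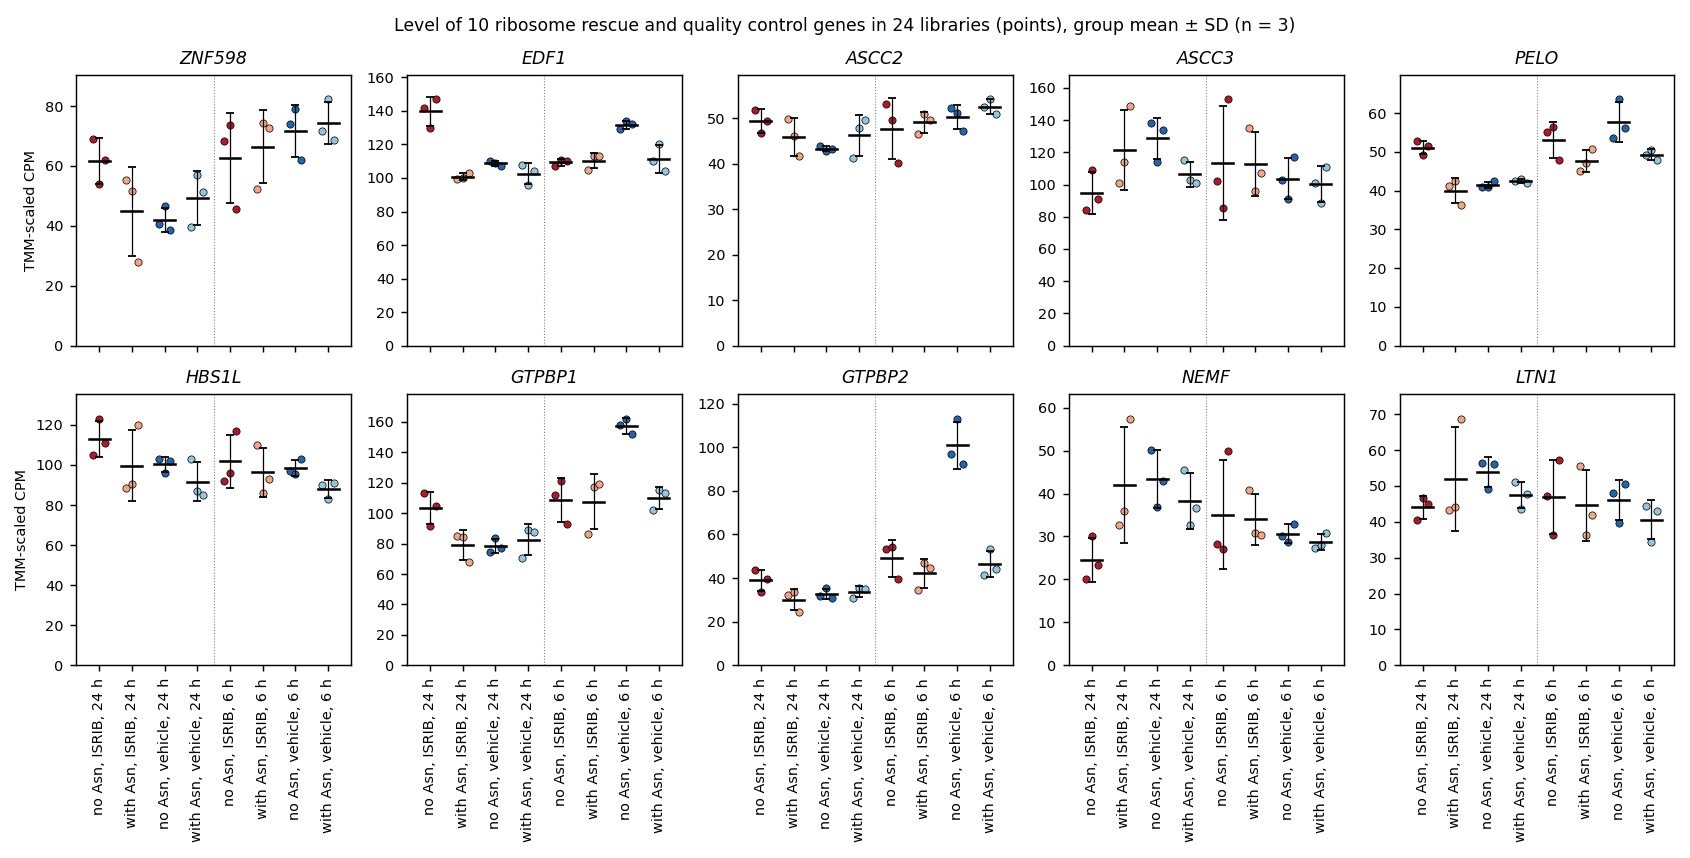
TMM-scaled CPM of each gene in 24 libraries (points), with the mean and SD of the 3 libraries of each group; the dotted line parts 24 h (left) from 6 h (right). GTPBP1 at 152 to 162 CPM and GTPBP2 at 92.4 to 113 CPM are highest without asparagine in vehicle at 6 h, and ZNF598, ASCC3, NEMF and LTN1 spread widely within groups.

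The promoter windows of the pair that rose are shown because these 2 genes moved together in the libraries. GTPBP1 lies at chr22:38705723-38738299 on the plus strand and GTPBP2 at chr6:43605316-43629162 on the minus strand of GRCh38. The windows run from 250 bases before to 50 after an annotated start and come from RefSeq (GRCh38.p14), which gave a window for 9 of the 10 genes and 2 windows for GTPBP2. The capitals mark TGACG, the core of the cAMP response element.
GTPBP1, chr22:38705694-38705993, plus strand: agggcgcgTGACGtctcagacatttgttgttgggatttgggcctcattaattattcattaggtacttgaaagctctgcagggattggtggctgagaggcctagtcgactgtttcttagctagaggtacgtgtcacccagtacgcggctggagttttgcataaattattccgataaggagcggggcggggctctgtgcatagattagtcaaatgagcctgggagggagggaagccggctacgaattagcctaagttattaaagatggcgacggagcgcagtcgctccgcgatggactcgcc
GTPBP2, upstream start, chr6:43629215-43629514, minus strand: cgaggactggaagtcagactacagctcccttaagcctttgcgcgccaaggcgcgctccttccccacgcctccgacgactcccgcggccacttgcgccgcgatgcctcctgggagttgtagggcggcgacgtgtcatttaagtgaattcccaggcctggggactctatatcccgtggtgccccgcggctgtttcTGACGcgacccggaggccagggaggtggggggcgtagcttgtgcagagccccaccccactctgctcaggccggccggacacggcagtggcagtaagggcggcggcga
GTPBP2, downstream start, chr6:43627292-43627591, minus strand: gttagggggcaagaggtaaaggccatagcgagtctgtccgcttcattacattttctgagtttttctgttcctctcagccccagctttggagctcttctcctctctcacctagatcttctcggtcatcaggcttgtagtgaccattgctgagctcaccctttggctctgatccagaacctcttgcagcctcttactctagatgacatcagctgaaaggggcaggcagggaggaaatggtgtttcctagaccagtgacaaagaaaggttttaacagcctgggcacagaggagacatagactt
Both strands were searched, and TGACG was found on the strand of the gene. It lay at -242 to -238 relative to the RefSeq start of GTPBP1 and at -57 to -53 relative to the upstream RefSeq start of GTPBP2. The downstream window did not hold it and therefore has no capitals. The gene spans given above are from GENCODE and begin elsewhere, so these distances hold for the RefSeq starts only. The GENCODE start of GTPBP1 lies inside its window, upstream of the RefSeq start. That of GTPBP2 lies downstream of the window of its upstream start. Among the other windows of these genes, ZNF598 held TGACG in 2 places and LTN1 in 1, while 24.6% of 35116 RefSeq windows hold it at least once. Neither TGATGNAA, the C/EBP-ATF response element (in 3.62% of all windows), nor the whole cAMP response element TGACGTCA (1.85%), which contains that core, was found in any of the 10 windows. A match describes the letters of the window and is not a binding measurement.

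ISRIB without asparagine at 6 h lowered the same 2 GTPases, to values that overlap those of fed cells in vehicle. GTPBP2 measured 53.2, 54.4 and 39.4 CPM with ISRIB, against 97, 113 and 92.4 CPM in vehicle, a log2 change of -1.04 ± 0.15 (adjusted p = 9.5e-05). GTPBP1 measured 112, 121 and 93.1 CPM with ISRIB, against 158, 162 and 152 CPM in vehicle (-0.53 ± 0.13, adjusted p = 0.023). The collision binder EDF1 also fell, at 107, 111 and 110 CPM with ISRIB against 129, 134 and 132 CPM in vehicle (-0.27 ± 0.07, adjusted p = 0.047). These 3 genes, all downward and all with non-overlapping groups, stand beside 2.19% of all genes called, 1.64% downward, and 13.2% without overlap. The comparison shares its vehicle libraries with the withdrawal comparison, so the 2 sets of values are not independent. The other 7 genes had log2 differences from -0.19 (ZNF598) to 0.2 (NEMF), with adjusted p of 0.72 or more.

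The calls of GTPBP1 and EDF1 at 6 h depended on which libraries were kept. GTPBP1 lost its call without replicate 1 (adjusted p = 0.087), 2 (0.097) or 3 (0.052) of vehicle and without replicate 1 (0.056) or 3 (0.12) of ISRIB. EDF1 lost it in 18 of 24 omissions, those of all 6 libraries compared included, with adjusted p up to 0.18, and with the GC trend removed its change was -0.18 ± 0.14 (adjusted p = 0.57). Its adjusted p was 0.49 with the groups compared alone, 0.51 without a filter, 0.058 with RLE scaling, 0.056 without the 3 libraries whose GC slope is most negative and 0.054 with limma. The GTPBP1 call ended with the groups compared alone (0.13). The EDF1 call was kept without replicate 2 or 3 of vehicle with asparagine at 6 h, replicate 1 of ISRIB with asparagine at 6 h, replicate 2 of vehicle with asparagine at 24 h, replicate 2 of ISRIB without asparagine at 24 h or replicate 3 of ISRIB with asparagine at 24 h.

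With ISRIB present, withdrawal at 6 h moved none of the 10 genes past the threshold, in a comparison where 2.3% of all genes were called and 12.9% did not overlap. GTPBP2 measured 53.2, 54.4 and 39.4 CPM without asparagine, against 34.7, 47 and 44.6 CPM with asparagine. These values overlap, and the log2 difference of 0.22 ± 0.15 had a 95% interval from -0.09 to 0.53, with adjusted p = 0.62 (0.27 ± 0.08 and 0.039 with the GC trend removed). GTPBP1 differed by 0.02 ± 0.13. No member reached an unadjusted p below 0.05 by edgeR, and the median difference of the 10 genes was 0.03, against 0 over all genes.

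The test of whether the ISRIB effect depends on the medium called GTPBP2 at 6 h, 1 downward call beside 0.718% of all genes, 0.661% downward. Its ISRIB effect was -1.04 without asparagine and -0.14 with asparagine, a difference of -0.9 ± 0.21 on the log2 scale (adjusted p = 0.042). The same difference for GTPBP1 was -0.5 ± 0.18 (adjusted p = 0.51). With the GC trend removed it was -0.53 ± 0.09 for GTPBP1 (adjusted p = 0.00077) and -0.93 ± 0.11 for GTPBP2 (1.1e-05). The GTPBP2 call ended with the groups compared alone (adjusted p = 0.15), upper-quartile scaling (0.063) and a minimum of 5 CPM (0.054). It was also lost in 14 of 24 omissions, with adjusted p up to 0.15. It was kept without replicate 3 of vehicle without asparagine, replicate 2 of vehicle with asparagine, replicate 2 of ISRIB without asparagine or replicate 1 of ISRIB with asparagine at 6 h, and at 24 h without replicate 1 of vehicle with asparagine, replicate 1 or 2 of ISRIB without asparagine or any replicate of ISRIB with asparagine.

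**Figure D3:**
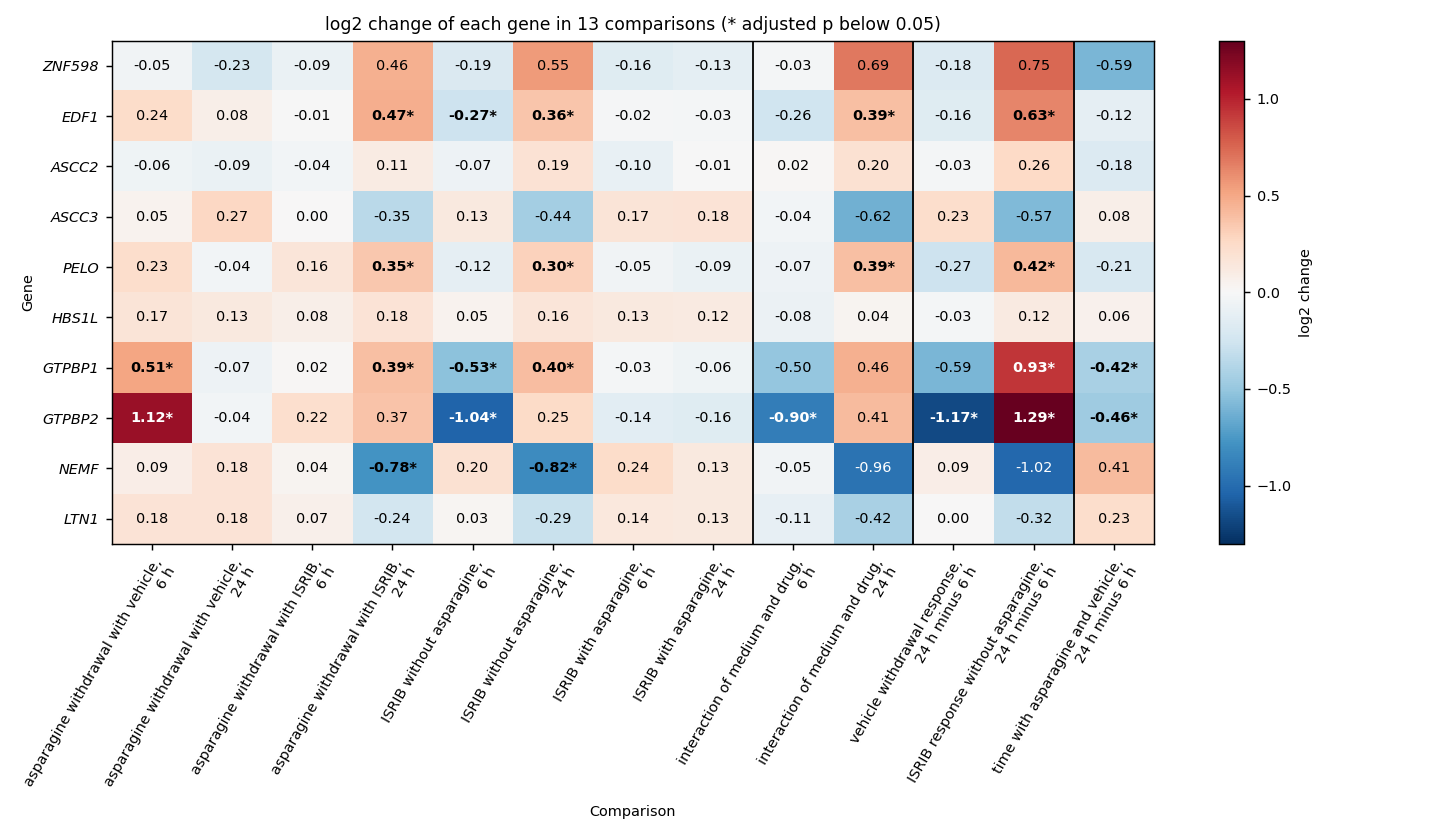
log2 change of the 10 genes (rows) in 13 comparisons (columns), with red for higher and blue for lower in the condition named first; asterisks mark adjusted p below 0.05. The first column holds asterisks for GTPBP2 (1.12) and GTPBP1 (0.51), and the columns of ISRIB with asparagine hold none.

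At 24 h in vehicle no difference of the pair from its fed level passed the test. GTPBP2 measured 31.8, 35.5 and 31 CPM without asparagine, against 30.8, 35.5 and 34.8 CPM with asparagine, a log2 difference of -0.04 ± 0.15 with a 95% interval from -0.35 to 0.27. GTPBP1 measured 74.8, 83.6 and 77.1 CPM without asparagine, against 70.6, 89.1 and 87.9 CPM with it (-0.07 ± 0.13, interval -0.34 to 0.19). None of the 10 genes was called by edgeR, none had an unadjusted p below 0.05 and all 10 overlapped between the groups, where 0.00574% of all genes were called and 16.8% did not overlap. DESeq2 also called none of the 10. The widest intervals belonged to ZNF598 (-0.67 to 0.21), NEMF (-0.28 to 0.64) and ASCC3 (-0.1 to 0.65). ASNS was still called at this time, with a log2 change of 1.07 ± 0.1 (adjusted p = 8.4e-06).

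The withdrawal response itself differed between the times for GTPBP2, at -0.04 in the 24 h comparison and 1.12 in the 6 h comparison, a difference of -1.17 ± 0.21 (adjusted p = 0.003). That is 1 downward call among the 10 genes, beside 1.22% of all genes, 1.03% downward. GTPBP1 had -0.07 at 24 h and 0.51 at 6 h, and the difference of -0.59 ± 0.18 missed the threshold at adjusted p = 0.15, but passed it with the GC trend removed (-0.56 ± 0.09, adjusted p = 0.00035), with the groups compared alone (0.026) and without the 3 libraries whose GC slope is most negative (0.012). PELO, the next by p, differed by -0.27 ± 0.12 (adjusted p = 0.52).

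Both GTPases also fell with time in fed cells in vehicle. GTPBP2 measured 30.8, 35.5 and 34.8 CPM at 24 h, against 41.6, 53.1 and 44.3 CPM at 6 h (-0.46 ± 0.15, adjusted p = 0.033). GTPBP1 measured 70.6, 89.1 and 87.9 CPM at 24 h, against 102, 115 and 113 CPM at 6 h (-0.42 ± 0.13, adjusted p = 0.025). These 2 downward calls stand beside 18.8% of all genes, 9.47% downward, and 6 of the 10 genes did not overlap between the times, beside 41.4% of all genes. The ligase ZNF598 measured 39.6, 57.1 and 51.3 CPM at 24 h, against 71.8, 82.3 and 68.8 CPM at 6 h. Its groups did not overlap either, and its log2 difference of -0.59 ± 0.21 had adjusted p = 0.053, or -0.5 ± 0.06 and 7.1e-07 with the GC trend removed. ZNF598 was also called by DESeq2 (0.037), with the replicate number as a block (-0.59 ± 0.19, 0.033), with the groups compared alone (0.0033), without a filter (0.00013) and without the 3 libraries whose GC slope is most negative (0.00099). NEMF differed in the other direction, by 0.41 ± 0.22 (adjusted p = 0.22), and was called with the groups compared alone (0.017), without a filter (0.045) and without those 3 libraries (0.021), as was PELO without them (-0.21 ± 0.07, 0.027). With upper-quartile scaling neither GTPase was called (0.075 for GTPBP1, 0.086 for GTPBP2), and GTPBP2 was not with a minimum of 5 CPM (0.053). GTPBP1 lost its call without replicate 2 (0.089) or 3 (0.078) of 6 h or replicate 1 (0.14) of 24 h, and GTPBP2 without replicate 2 (0.17) or 3 (0.06) of 6 h or replicate 1 (0.13), 2 (0.053) or 3 (0.07) of 24 h. ZNF598 was called in 5 omissions: replicate 3 of ISRIB without asparagine (adjusted p = 0.031) and replicate 1 of ISRIB with asparagine (0.043) at 6 h, and replicate 2 of vehicle with asparagine (0.048) and replicates 1 (0.046) and 3 (0.014) of ISRIB with asparagine at 24 h.

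After 24 h without asparagine, ISRIB raised EDF1, PELO and GTPBP1 and lowered NEMF. EDF1 measured 142, 130 and 147 CPM with ISRIB, against 110, 109 and 107 CPM in vehicle, a log2 change of 0.36 ± 0.07 (adjusted p = 0.0011). PELO, the A-site rescue factor, measured 52.7, 49.2 and 51.4 CPM with ISRIB, against 40.9, 41 and 42.4 CPM in vehicle (0.3 ± 0.09, adjusted p = 0.015). Both genes had narrow groups that did not touch. GTPBP1 measured 113, 91.8 and 105 CPM with ISRIB, against 74.8, 83.6 and 77.1 CPM in vehicle (0.4 ± 0.13, adjusted p = 0.03). NEMF, which acts on the split large subunit, measured 20, 30.2 and 23.3 CPM with ISRIB, against 50.2, 36.8 and 43 CPM in vehicle (-0.82 ± 0.22, adjusted p = 0.012). These 4 calls among 10 genes, 3 upward and 1 downward, stand beside 21.7% of all genes, 10.1% upward and 11.6% downward, and 9 of 10 genes did not overlap, beside 43% of all genes.

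For the other genes the same comparison gave no call in edgeR's fit as described. GTPBP2, the gene with the largest early change, measured 43.5, 33.8 and 39.6 CPM with ISRIB, against 31.8, 35.5 and 31 CPM in vehicle. These values overlap, with a log2 difference of 0.25 ± 0.15 (adjusted p = 0.23). ZNF598 measured 69.1, 54 and 61.9 CPM with ISRIB, against 40.6, 46.6 and 38.7 CPM in vehicle (0.55 ± 0.21, adjusted p = 0.063). ZNF598 was called with the replicate number as a block (0.57 ± 0.19, adjusted p = 0.036), by DESeq2 (0.045), with the groups compared alone (0.0029), without a filter (0.00034) and without the 3 libraries whose GC slope is most negative (0.0014). The helicase ASCC3 measured 84.3, 109 and 90.8 CPM with ISRIB, against 138, 114 and 134 CPM in vehicle (-0.44 ± 0.18, adjusted p = 0.082), and was called with the groups compared alone (0.0077), without a filter (0.0055) and without those 3 libraries (0.0033). Both genes had non-overlapping groups with wide spread inside each. The log2 differences of ASCC2, HBS1L and LTN1 were 0.19, 0.16 and -0.29, with adjusted p from 0.17 to 0.33, and LTN1 was called with the groups compared alone (0.038) and without those 3 libraries (0.044). The PELO call ended without a filter (0.12).

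Markers of other cells and the share of mitochondrial counts also differed between these groups. The summed fibroblast markers were at 9.68 to 14.1 CPM with ISRIB and 4.33 to 7.11 CPM in vehicle, and the endothelial ones at 0.88 to 1.61 CPM with ISRIB and 2.37 to 3.53 CPM in vehicle. The fibroblast sums are almost wholly COL1A1, since COL3A1 and DCN reached at most 0.168 and 0.234 CPM in any library. The endothelial sums are mostly PECAM1, since VWF reached at most 0.36 CPM. These differences are thus mainly those of 1 gene each, and whether cell types changed was not tested. The blood cell markers were at 1.31 to 1.72 CPM with ISRIB and 1.41 to 2.22 CPM in vehicle, beside epithelial sums of 10500 to 11100 CPM with ISRIB and 9630 to 10900 CPM in vehicle. Mitochondrial genes took 6.19, 7.18 and 6.66% of the counts with ISRIB and 8.63, 7.3 and 7.45% in vehicle. The part of these values in the 4 calls was not tested.

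The GC slope moved with these groups too: it was 0.2, -0.05 and 0.15 in the ISRIB libraries and -0.17, -0.01 and -0.17 in the vehicle libraries without asparagine at 24 h. Removing the GC trend left PELO (0.38 ± 0.1, adjusted p = 0.0053), GTPBP1 (0.21 ± 0.06, 0.015) and NEMF (-0.61 ± 0.11, 0.00021) called, and ended the call of EDF1 (0.12 ± 0.14, 0.56). It brought HBS1L, the GTPase partner of PELO, past the threshold at 0.38 ± 0.05 (4.1e-06) and ASCC3 at -0.25 ± 0.09 (0.029), and left ZNF598 uncalled at 0.14. GTPBP1 lost its call without replicate 1 (adjusted p = 0.11) or 3 (0.091) of vehicle or replicate 1 (0.14) or 3 (0.093) of ISRIB, PELO without replicate 1 (0.054) of vehicle or replicate 1 (0.065) or 3 (0.053) of ISRIB, and NEMF without replicate 1 of vehicle (0.063) or of ISRIB (0.077). ZNF598 was called without replicate 3 of ISRIB without asparagine at 6 h (0.038) or replicate 3 of ISRIB with asparagine at 24 h (0.019), and ASCC3 without the first of these libraries (0.031).

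**Figure D4:**
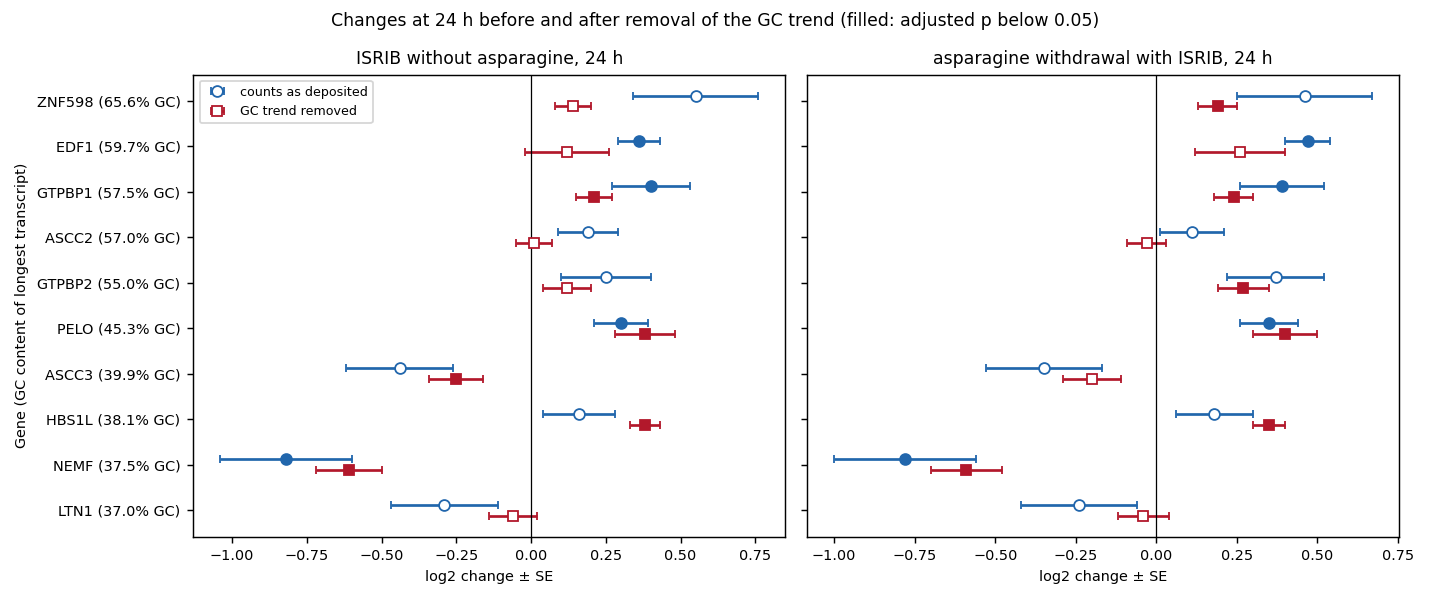
log2 change with SE of each gene in the ISRIB comparison without asparagine at 24 h (left) and in withdrawal with ISRIB at 24 h (right), from the counts as deposited (blue circles) and with the GC trend removed (red squares); filled symbols have adjusted p below 0.05. In the left panel PELO, GTPBP1 and NEMF are filled both ways, EDF1 only with the counts as deposited, and HBS1L and ASCC3 only with the trend removed.

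Withdrawal under ISRIB at 24 h, which shares its starved libraries with the comparison above, gave calls for the same 4 genes. EDF1 measured 142, 130 and 147 CPM without asparagine, against 99.5, 100 and 103 CPM with asparagine (0.47 ± 0.07, adjusted p = 7.1e-05). PELO measured 52.7, 49.2 and 51.4 CPM without asparagine, against 41.1, 42.6 and 36.3 CPM with it (0.35 ± 0.09, adjusted p = 0.0051). The log2 changes of GTPBP1 (0.39 ± 0.13, adjusted p = 0.034) and NEMF (-0.78 ± 0.22, adjusted p = 0.016) were close to those against vehicle. GTPBP2 was not called at 0.37 ± 0.15 (adjusted p = 0.079), although its groups did not overlap. The background was 22.1% of all genes called, 9.97% upward and 12.2% downward, and 34.8% without overlap, where 5 of the 10 genes did not overlap.

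NEMF measured 20, 30.2 and 23.3 CPM without asparagine under ISRIB, against 32.6, 36 and 57.4 CPM with it, and the highest of these values is from the library with the most negative GC slope, replicate 3 with asparagine. Without that library the change of NEMF was -0.49 (adjusted p = 0.13) and that of GTPBP1 0.29 (0.16). Both calls were also lost without replicate 1 (0.093 for NEMF, 0.15 for GTPBP1) or 3 (0.056 and 0.098) of ISRIB without asparagine, and GTPBP2 was called without replicate 3 of ISRIB without asparagine at 6 h (0.049). With the GC trend removed the EDF1 change was 0.26 ± 0.14 (adjusted p = 0.15), and ZNF598 (0.19 ± 0.06, 0.011), HBS1L (0.35 ± 0.05, 8.3e-06) and GTPBP2 (0.27 ± 0.08, 0.013) were called beside PELO, GTPBP1 and NEMF. With the groups compared alone the calls of GTPBP1 (adjusted p = 0.11), NEMF (0.072) and PELO (0.09) ended, that of PELO also without a filter (0.073) and that of GTPBP1 also without the 3 libraries whose GC slope is most negative (0.053). HBS1L was called without those 3 libraries (0.32 ± 0.08, 0.0085), and ZNF598 (0.007) and ASCC3 (0.034) without a filter. GTPBP2 was also called with the replicate number as a block, at 0.38 ± 0.14 (adjusted p = 0.044).

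The dependence of the ISRIB effect on the medium at 24 h was called for 2 genes, both upward, beside 9.06% of all genes, 3.47% upward. For EDF1 the ISRIB effect was 0.36 without asparagine and -0.03 with asparagine (difference 0.39 ± 0.1, adjusted p = 0.02), and this difference was 0.02 ± 0.2 (0.97) with the GC trend removed. For PELO it was 0.3 without asparagine and -0.09 with asparagine (0.39 ± 0.12, adjusted p = 0.046), and 0.49 ± 0.14 (0.018) with the trend removed. The NEMF difference of -0.96 ± 0.31 had adjusted p = 0.058, or -0.64 ± 0.15 and 0.0064 with the trend removed, where HBS1L was called too (0.35 ± 0.07, 0.0012). NEMF was also called with the replicate number as a block (-0.93 ± 0.3, adjusted p = 0.049), by DESeq2 (0.026), without the 3 libraries whose GC slope is most negative (-0.68 ± 0.19, 0.026), with a minimum of 5 CPM (0.048) and without a filter (7.9e-05). Without a filter the calls of EDF1 (0.2) and PELO (0.27) ended and ZNF598 (0.0056) and ASCC3 (0.006) were called, and the PELO call ended with the groups compared alone (0.066). The PELO call was lost in 18 of 24 omissions (adjusted p up to 0.13). It was kept without replicate 2 of vehicle without asparagine, replicate 3 of ISRIB without asparagine or replicate 1 of ISRIB with asparagine at 6 h, and without replicate 2 of ISRIB without asparagine or replicate 1 or 2 of ISRIB with asparagine at 24 h. The EDF1 call was lost without replicate 3 of vehicle without asparagine (0.054), replicate 3 of vehicle with asparagine (0.053) or replicate 1 (0.054) or 3 (0.067) of ISRIB without asparagine at 24 h. In 7 omissions NEMF was called, the smallest adjusted p being 0.02 without replicate 3 of ISRIB without asparagine at 6 h, and ASCC3 was called at 0.049 without that library.

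The ISRIB effect without asparagine was higher at 24 h than at 6 h for both GTPases, EDF1 and PELO, the 4 called genes here, beside 7.59% of all genes, 3.35% upward. For GTPBP2 it was 0.25 at 24 h and -1.04 at 6 h, a difference of 1.29 ± 0.21 (adjusted p = 0.00059). For GTPBP1 it was 0.4 at 24 h and -0.53 at 6 h (0.93 ± 0.18, adjusted p = 0.0029). The EDF1 effect was 0.36 at 24 h and -0.27 at 6 h (0.63 ± 0.1, adjusted p = 0.00052), and that of PELO 0.3 at 24 h and -0.12 at 6 h (0.42 ± 0.12, adjusted p = 0.035). With the GC trend removed the EDF1 difference was 0.3 ± 0.2 (adjusted p = 0.32), the other 3 calls held, and NEMF (-0.7 ± 0.16, 0.0039), HBS1L (0.4 ± 0.07, 3e-04) and ZNF598 (0.26 ± 0.08, 0.027) were called as well. The PELO call ended with the groups compared alone (0.081) and without a filter (0.17), where ZNF598 (0.0014) and ASCC3 (0.027) were called. PELO also lost its call without replicate 2 of vehicle without asparagine (0.12) or replicate 3 of ISRIB without asparagine (0.1) at 6 h, or at 24 h without any of the 3 vehicle libraries without asparagine (0.08, 0.064 and 0.063) or replicate 1 (0.092) or 3 (0.081) of ISRIB without asparagine. NEMF missed the threshold at -1.02 ± 0.32 (adjusted p = 0.051). It passed with the replicate number as a block (-0.99 ± 0.3, 0.044), by DESeq2 (0.019), without the 3 libraries whose GC slope is most negative (-0.7 ± 0.2, 0.027), with RLE (0.049) or upper-quartile (0.047) scaling, with a minimum of 5 CPM (0.04) and without a filter (5.2e-05). It also passed in 7 omissions, with the smallest adjusted p of 0.021 without replicate 3 of ISRIB with asparagine at 24 h, while ZNF598 was called at 0.044 without that library.

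ISRIB in fed cells moved none of the 10 genes past the threshold at either time. At 6 h GTPBP2 measured 34.7, 47 and 44.6 CPM with ISRIB, against 41.6, 53.1 and 44.3 CPM in vehicle (-0.14 ± 0.15, interval -0.44 to 0.17). At 24 h it measured 32.4, 33.4 and 24.6 CPM with ISRIB, against 30.8, 35.5 and 34.8 CPM in vehicle (-0.16 ± 0.15, interval -0.47 to 0.15). The log2 differences of the 10 genes ran from -0.16 to 0.24 at 6 h and from -0.16 to 0.18 at 24 h. At both times edgeR called 0% of all genes, and no member had an unadjusted p below 0.05 or groups without overlap, beside 6.74% of all genes without overlap at 6 h and 4.53% at 24 h. DESeq2 called none of the 10 either.

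Across the 8 groups, GTPBP2 was highest without asparagine in vehicle at 6 h (101 ± 11.1 CPM, SD, n = 3), and every neighbouring pair of groups in the order below it overlapped. The next was ISRIB without asparagine at 6 h (49 ± 8.37 CPM), and the lowest was ISRIB with asparagine at 24 h (30.1 ± 4.83 CPM). GTPBP1 had the same group on top (157 ± 5.36 CPM), then the 3 other groups of 6 h between 108 and 110 CPM, then ISRIB without asparagine at 24 h (103 ± 10.7 CPM), whose lowest library was above the highest of the next group. The remaining 24 h groups averaged 78.5 to 82.6 CPM and overlapped. For EDF1 the 2 highest groups were ISRIB without asparagine at 24 h (140 ± 9.16 CPM) and vehicle without asparagine at 6 h (132 ± 2.62 CPM), which overlapped each other and not the next group. NEMF ran from 43.3 ± 6.7 CPM in vehicle without asparagine at 24 h down to 24.5 ± 5.18 CPM with ISRIB without asparagine at 24 h, with overlap between all neighbours in the order. So did the neighbours of ZNF598, ASCC2, ASCC3, HBS1L and LTN1, whose group means spanned 42 to 74.3, 43.4 to 52.5, 94.8 to 129, 87.9 to 113 and 40.6 to 53.9 CPM. In the order of PELO a gap parted the fifth group, ISRIB with asparagine at 6 h (47.7 ± 2.9 CPM), from the sixth, vehicle with asparagine at 24 h (42.5 ± 0.573 CPM).

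The pair GTPBP1 and GTPBP2 had the highest correlation of log2 CPM over the 24 libraries among the 45 pairs of these genes (r = 0.949, and 0.952 with the GC trend removed). In the 3 starved vehicle libraries of 6 h both genes were higher than in any other library. ASCC3 and NEMF came next at 0.901, but that value was 0.727 with the trend removed, and NEMF and LTN1, which act in the same step, had 0.788 and 0.273. PELO and its partner HBS1L had -0.0775 and 0.503. All these correlations come from the same 24 libraries, whose GC slopes differ, and are given as a description.

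**Figure D5:**
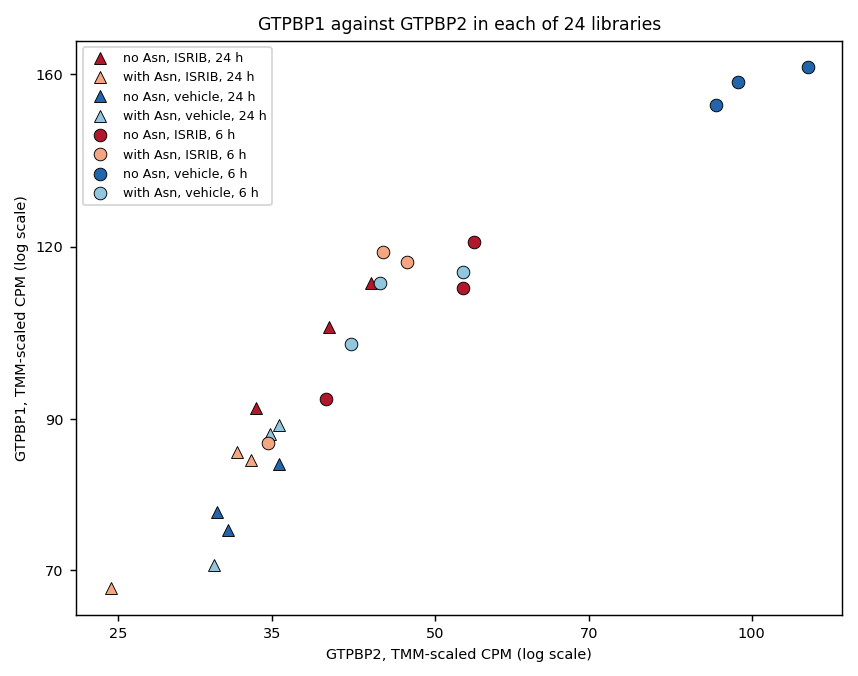
TMM-scaled CPM of GTPBP1 against GTPBP2 (log axes) in each of 24 libraries, coloured by medium and drug, with circles for 6 h and triangles for 24 h. The 3 libraries without asparagine in vehicle at 6 h lie at the upper right, at 152 CPM of GTPBP1 or more and 92.4 CPM of GTPBP2 or more.

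Among 11560 other genes with at least 5 CPM on average, the 5 whose log2 level followed GTPBP2 most closely over the 24 libraries were SESN2 (r = 0.971), VEGFA (0.964), NAV2 (0.956), SHMT2 (0.951) and STK40 (0.95). For GTPBP1 they were AC005014.5 (0.965), SLC3A2 (0.953), STK40 (0.951), GTPBP2 (0.949) and EP400 (0.941). PELO was followed by ZFAND3 (0.958), KLF4 (0.938), NAB2 (0.937), FOXD1 (0.935) and MISP (0.927), and NEMF, among others, by ETAA1 (0.96), SH3YL1 (0.959), PDIA3 (0.957) and PBK (0.957). EDF1 had no close follower, with SKA2P1 at 0.852, then DNTTIP1 (0.821), ZHX2 (0.82), DDB2 (0.815) and SEC16A (0.812). All these values were taken with the GC trend left in, and the level of NEMF itself correlated with the GC slope at -0.865. The part of the GC slope in them was not tested.

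The wider pathway was followed in 4 lists of 47 genes, of which 45 were tested: collision sensing and signalling, ribosome splitting and release, extraction of the nascent chain, and decay of the stalled mRNA. At 6 h of withdrawal in vehicle 1 of the 45 was called, beside 4.57% of all genes, 3.31% upward. It was ANKZF1, the hydrolase that releases the nascent chain from the split large subunit. It measured 48, 42.8 and 44.9 CPM without asparagine, against 25.5, 23.5 and 24.8 CPM with asparagine (0.88 ± 0.11, adjusted p = 1.8e-05). ISRIB without asparagine at 6 h also called ANKZF1 alone, at 30, 21.1 and 22.4 CPM with ISRIB against 48, 42.8 and 44.9 CPM in vehicle (-0.88, adjusted p = 2.3e-05), beside 2.19% of all genes, 1.64% downward. Its ISRIB effect depended on the medium (-0.87 ± 0.16, adjusted p = 0.0047), and its withdrawal response was lower at 24 h than at 6 h (-0.87 ± 0.16, adjusted p = 0.0033). In vehicle at 24 h ANKZF1 averaged 38.4 ± 1.73 CPM without asparagine and 38.1 ± 3.68 CPM with it (SD, n = 3 each). Under ISRIB at 24 h it averaged 45.7 ± 3.52 CPM without asparagine and 35.5 ± 1.08 CPM with it. ANKZF1 was not called for ISRIB without asparagine at 24 h. With time in fed vehicle cells ANKZF1 rose (0.63, adjusted p = 4e-04), whereas GTPBP2 fell by 0.46 on the log2 scale.

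At 24 h the test of ISRIB without asparagine called 11 of the 45 wider genes, 3 upward and 8 downward. Their median log2 difference was -0.05. Over all genes 21.7% were called, 10.1% upward and 11.6% downward, so the number called here is near the share over all genes. The GC slope differed between these groups. No values with the GC trend removed or with libraries left out were read out for the wider genes, so how far their calls depend on either is not known. Among collision signalling, the kinase GCN2 (EIF2AK4) fell by 0.42 on the log2 scale (adjusted p = 0.00086), its inhibitor IMPACT by 0.65 (0.00032), and the E3 ligases MKRN1 by 0.34 (0.0022) and RNF14 by 0.42 (0.009). The cap-binding protein EIF4E2, a partner of GIGYF2 in repressing initiation, rose in the same list (0.2 ± 0.06, adjusted p = 0.027); it is the fifth called gene there and was named after its value was seen. ASCC1, a further subunit of the ASC-1 complex, fell by 0.49 (0.00021), and TCF25, a partner of LTN1, by 0.34 (0.02). Of the RNA decay list the exosome subunits EXOSC2 (-0.27, 0.014) and DIS3 (-0.42, 0.044) fell, while EXOSC4 (1.04 ± 0.22, 0.0022) and the helicase UPF1 (0.35 ± 0.12, 0.041) rose. Withdrawal under ISRIB at 24 h called 12 of the 45, 3 upward and 9 downward, beside 22.1% of all genes, 9.97% upward and 12.2% downward. With vehicle at 24 h, withdrawal called none of them, and neither did withdrawal under ISRIB at 6 h or ISRIB in fed cells at either time.

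Several of the genes share exon sequence with a neighbour, and the counts cannot be assigned with certainty there, since the sources used here do not give the strand setting. NEMF (chr14:49782083-49853203, minus strand) shares 3010 exon bases, 31.9% of its exon length, with KLHDC2 on the opposite strand. KLHDC2 had 250 counts on average and a log2 difference of -0.21 (adjusted p = 0.19) for ISRIB without asparagine at 24 h, where NEMF fell by 0.82. PELO (chr5:52787940-52804046, plus strand) shares 475 bases (10.9%) with ITGA1 on its own strand, which had 119 counts on average and was called in none of the 13 comparisons. GTPBP1 shares 680 bases (8.33%) with SUN2 on the opposite strand and GTPBP2 4 bases with POLH. Of the distinct stretches of 50 bases in GTPBP2 transcripts, under 1% are shared with any 1 other gene. At most that share could therefore be found in GTPBP1, and whether any is was not resolved.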

How the data were processed

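RNA sequencing was deposited as a table of counts per gene for 24 libraries, 3 in each of 8 groups taken from the sample labels. The authors' processing used Bowtie2, featureCounts and DESeq2 with build hg38, per the submitters' processing notes; versions, roles and strand setting are not given in the sources used here. A second deposited table holds log2 values after a variance-stabilising transformation and served as an alternative input only.

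Counts were scaled by TMM and filtered with filterByExpr in edgeR 4.0.16 (R 4.3.3). Each group had its own mean in a single fit to all libraries (17409 genes, 16 residual degrees of freedom, common dispersion 0.0176). Quasi-likelihood F tests gave the 13 comparisons, with Benjamini-Hochberg adjustment over all genes and a threshold of 0.05; the SE was derived from the log2 change and its F value. CPM are TMM-scaled, and intervals are 95% intervals of the fit. With libraries of 16737384 to 27495861 counts, the spread between replicates and not counting limits precision.

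Positions, exon lengths and transcript GC content (longest transcript) came from GENCODE release 29, which matched 36620 of 37411 identifiers, and 32930 with the same version. The GC correction removed a robust spline with 5 degrees of freedom per library. The fitted trend was then taken as known, so each SE and adjusted p with the trend removed leaves out its uncertainty. Whether the trend holds a response of the cells was not tested. Results were recomputed with DESeq2 1.42.0, with upper-quartile or RLE factors, with other filters, with limma 3.58.1 on the log2 values, with a block for replicate number, with fits of only the groups compared, and with libraries left out. The fit was tested on simulated data for withdrawal in vehicle at 6 h, with 50 changed genes at each fold. It called 4% of those changed 1.25-fold, 54% at 1.5-fold, 98% at 2-fold and 100% at 4-fold. A small change can therefore go uncalled. The simulated libraries had independent noise between genes and no GC slope, so these rates need not hold in the real libraries or in other comparisons.

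Named were all 10 genes, ASNS, at most 4 called genes per wider list and comparison with the smallest adjusted p, and the 5 genes most correlated with each gene called for medium or drug, of which 1 is not reported here. The wider lists hold 47 genes, matched by symbol or identifier, of which 45 were tested. The genes, lists and tests were chosen with earlier results of these data known. 

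Replicate numbers come from the labels, which do not say what they mark. The deviations of same-numbered libraries from their group means correlated at 0.304 to 0.339 for withdrawal in vehicle at 6 h, 0.187 to 0.35 at 24 h and 0.327 to 0.47 for ISRIB without asparagine at 6 h, all above 0.1. At least 1 pair was below 0.1 in the other 6 comparisons of 2 groups.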

Additional observations from a re-analysis of the deposited data

Results flagged for a closer look

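The results below were singled out because an effect differed between media or times by a test of the difference itself, in edgeR's quasi-likelihood fit with adjustment over all genes. Each direction holds for the means of 3 libraries a group.

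The ISRIB effect on GTPBP2 at 6 h differed between the media by -0.9 ± 0.21 on the log2 scale (adjusted p = 0.042). Its withdrawal response in vehicle differed between 24 h and 6 h by -1.17 ± 0.21 (adjusted p = 0.003), and its ISRIB effect without asparagine by 1.29 ± 0.21 (adjusted p = 0.00059). For GTPBP1 this last difference was 0.93 ± 0.18 (adjusted p = 0.0029). The 3 vehicle libraries without asparagine at 6 h, which enter all 4 of these values, lay above every library they are set against.

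The ISRIB effect at 24 h differed between the media by 0.39 ± 0.1 for EDF1 (adjusted p = 0.02) and by 0.39 ± 0.12 for PELO (adjusted p = 0.046). The ISRIB effect without asparagine differed between 24 h and 6 h by 0.63 ± 0.1 for EDF1 (adjusted p = 0.00052) and by 0.42 ± 0.12 for PELO (adjusted p = 0.035). With the GC trend removed both EDF1 values missed the threshold, at 0.02 ± 0.2 and 0.3 ± 0.2, with a larger SE than before. Both PELO values passed it, at 0.49 ± 0.14 and 0.5 ± 0.14.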

How the results depend on the processing

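The 23 called changes of single genes kept their direction under every alternative and every omission of a library. They stayed called in 23 cases with DESeq2, 23 with the replicate block, 22 with RLE scaling, 22 with limma, 21 with a minimum of 5 CPM, 21 without the 3 libraries whose GC slope is most negative, 20 with upper-quartile scaling, 18 with the GC trend removed, 18 with that and the block, 17 without a filter and 15 with the groups compared alone, and 9 stayed called in all 24 omissions. Of the 84 changes that no setting called, 174 of 2940 alternative values had the opposite sign, none larger than 0.29. Omissions that reversed the uncalled medium dependence of the ISRIB effect on HBS1L at 24 h gave -0.05, -0.02, -0.03 and -0.02 (0.04 with all libraries), in a range over all omissions of -0.05 to 0.2.

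The number of the 10 genes called moved by over 1.5 times as follows, with the count as reported in parentheses, and the cause was not tested. With the GC trend removed, without and with the replicate block, withdrawal with ISRIB at 6 h went to 1 (0), the medium dependence at 6 h to 2 (1) and the time difference of the vehicle response to 2 (1). Smaller moves with the GC trend removed were 6 (4) for withdrawal with ISRIB at 24 h, 2 (3) and 5 (4) for ISRIB without asparagine at 6 and 24 h, 3 (2) for the medium dependence at 24 h, 6 (4) for the time difference of the ISRIB response and 3 (2) for time. The block with the GC correction also gave 4 (2) for the medium dependence at 24 h and 5 (2) for time in fed cells. With the groups compared alone, which fits fewer libraries, the counts were 1 (4) for withdrawal with ISRIB at 24 h, 1 (3) and 7 (4) for ISRIB without asparagine at 6 and 24 h, 0 (1) and 1 (2) for the medium dependence at 6 and 24 h, 2 (1) for the time difference of the vehicle response and 4 (2) for time. Without the 3 libraries whose GC slope is most negative they were 7 (4) for ISRIB without asparagine at 24 h, 2 (1) for the vehicle response and 5 (2) for time. Upper-quartile scaling gave 0 (1) for the medium dependence at 6 h and 0 (2) for time, the minimum of 5 CPM 0 (1) and 1 (2), and no filter 4 (2) for time.

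Leaving out 1 library gave 1 to 3 calls for withdrawal in vehicle at 6 h, 2 to 5 for withdrawal with ISRIB at 24 h, 1 to 3 and 1 to 6 for ISRIB without asparagine at 6 and 24 h, 0 to 1 and 0 to 4 for the medium dependence at 6 and 24 h, 1 to 1 and 3 to 6 for the time differences of the vehicle and ISRIB responses, and 0 to 3 for time. It gave 0 to 0 for the other 4 comparisons.

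With the replicate number as a block the counts were 5 (4) for withdrawal with ISRIB at 24 h, where GTPBP2 was gained, 5 (4) for ISRIB without asparagine at 24 h and 3 (2) for time, where ZNF598 was, and 3 (2) for the medium dependence at 24 h and 5 (4) for the time difference of the ISRIB response, where NEMF was. The block changed no other call. DESeq2 gained EDF1 for withdrawal in vehicle at 6 h (3 against 2) and the same calls of ZNF598 and NEMF as the block. Among the 24 libraries, 15 were most correlated with libraries of the same number.

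Over all genes, the calls were 795 (782 to 2194 over the alternatives other than single omissions) for withdrawal in vehicle at 6 h and 1 (1 to 186) at 24 h, 400 (0 to 1786) and 3855 (1544 to 6505) for withdrawal with ISRIB at 6 and 24 h, 381 (141 to 1401) and 3778 (3603 to 6456) for ISRIB without asparagine, 0 (0 to 7) and 0 (0 to 8) with asparagine, 125 (72 to 394) and 1577 (1171 to 3643) for the medium dependence, 213 (214 to 1012) and 1322 (950 to 3454) for the time differences of the vehicle and ISRIB responses, and 3275 (2863 to 6059) for time.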
